A study of Mus musculus with 2 samples.

Results

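Aldh1a2, Lrp2, Gpm6a, Nkain4, Anxa8 and Chst4 are 6 genes that were much lower in silica-remodelled mouse spleen than in control spleen, and that have been linked to the mesothelium and capsule at the surface of the organ. They were chosen because of that difference, so the differences below describe them and are not tests. All 6 had at least 1 probe on the array, 7 probes in all, out of 16774 named genes with a probe well above background in 1 or both pools. The RNA came from whole spleen, so the files do not show where in the organ any of the 6 was expressed. The capsule link is therefore background.

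Each array held the RNA of 1 pool of 5 spleens from female mice, and there was 1 array per group. The SiO2 group was spleen remodelled with silica (SiO2), and the PBS group was spleen given phosphate-buffered saline as control. Both were taken on day 19 after the first injection, and strain, age and dose are not given in the sources used here. With 1 pool per group the spread between animals is unknown, no p-value can be given, and the number of arrays limits the precision. The comparison sets expression after silica remodelling against that of the control organ.

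The mesothelium is a single sheet of flat epithelial-like cells that covers the abdominal organs and secretes a lubricating film. In the embryo it is a source of retinoic acid, the signalling form of vitamin A, which retinaldehyde dehydrogenases make from retinaldehyde and which acts through nuclear receptors. Among the 6 genes, Aldh1a2 encodes the main embryonic retinaldehyde dehydrogenase. Lrp2 encodes megalin, a very large endocytic receptor of the LDL receptor family that takes up retinol-binding protein in the kidney. Gpm6a encodes a membrane glycoprotein of the proteolipid protein family, best known from growing neurites. Nkain4 encodes a membrane protein that binds the sodium pump, Anxa8 a calcium-dependent phospholipid-binding annexin, and Chst4 a sulfotransferase that makes sulfated L-selectin ligands in the high endothelial venules of lymph nodes.

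Promoter sequences are shown for 3 of the genes, as a description of the letters near their start sites. Only 5 preset short sequences were searched, so other shared sequences would have been missed. A link between promoter sequence and the lower signals was not tested. The RefSeq promoter table of build GRCm38.p6 held windows for 5 of the 6 genes: Gpm6a, with 2 windows, Anxa8, Chst4, Lrp2 and Aldh1a2. Nkain4 was not matched. Each window runs from 250 bases before the start site to 50 after it, and is written 5′ to 3′ on the strand of the gene. Capitals mark matches, on either strand, to GGAATG (the core of TEAD sites), GGGCGG (the GC box), AGGTCA (the half-site of retinoid and other nuclear receptors), AGATAA (the core of GATA sites) or TATAAA (the TATA box). Where matches overlapped, all of their bases were put in capitals. The windows shown are that of Gpm6a at chr8:54779184-54779483 on the + strand, that of Lrp2 at chr2:69585980-69586279 on the - strand and that of Aldh1a2 at chr9:71215539-71215838 on the + strand.
Gpm6a: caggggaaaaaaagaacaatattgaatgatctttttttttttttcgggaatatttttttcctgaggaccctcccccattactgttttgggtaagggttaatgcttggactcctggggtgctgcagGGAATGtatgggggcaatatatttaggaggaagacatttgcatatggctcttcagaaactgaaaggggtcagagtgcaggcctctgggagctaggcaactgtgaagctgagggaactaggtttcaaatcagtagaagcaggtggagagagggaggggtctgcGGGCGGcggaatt
Lrp2: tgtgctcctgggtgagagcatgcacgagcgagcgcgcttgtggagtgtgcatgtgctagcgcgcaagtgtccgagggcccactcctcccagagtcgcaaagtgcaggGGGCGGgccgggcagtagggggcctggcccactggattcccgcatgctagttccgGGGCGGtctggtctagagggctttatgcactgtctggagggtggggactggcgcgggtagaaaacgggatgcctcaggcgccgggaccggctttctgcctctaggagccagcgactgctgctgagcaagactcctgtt
Aldh1a2: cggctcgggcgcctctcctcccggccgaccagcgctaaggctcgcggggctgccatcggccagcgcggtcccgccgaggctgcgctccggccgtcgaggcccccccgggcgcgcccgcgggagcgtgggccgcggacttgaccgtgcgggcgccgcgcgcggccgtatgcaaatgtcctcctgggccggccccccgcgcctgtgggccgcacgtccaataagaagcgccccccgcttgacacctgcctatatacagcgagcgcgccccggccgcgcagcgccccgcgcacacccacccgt

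None of the 5 searched sequences was shared by all 6 windows. GGGCGG was found in the windows of 2 genes, with 2 matches in Lrp2 and 1 in Gpm6a, and it is present in 35.7% of all 32851 promoter windows of this length. GGAATG was found once, in the first window of Gpm6a (14.7% of all windows), and TATAAA once, on the opposite strand in the second window of Gpm6a (13.6%). AGGTCA (16.3% of all windows) and AGATAA (11.2%) matched in 0 of the 6 windows. The windows of Anxa8 and Chst4 held no match. Base composition also differed among the 6: guanine and cytosine made up 78% of the Aldh1a2 window, 65% of that of Lrp2, 57.3% of that of Anxa8, 56.3% of that of Chst4, and 47% and 36% of the Gpm6a windows, against a median of 52.7% over all windows. These are descriptions of the letters in these windows and do not show whether a factor binds there.

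Signals are processed intensities in arbitrary units, from which the scanner software has already subtracted the background. The error after ± is the software's own error for the spot, which does not cover animals, pools or labelling. Each difference is the log2 value in SiO2 minus that in PBS, after each array was set relative to the 75th percentile of its own signals, 469 units in SiO2 and 670 units in PBS. A log2 difference of -1 is 2-fold lower. Signals of different probes cannot be compared with each other, so each gene is compared only with itself. The summed signal of mesothelial genes given below is under that limit too. On these arrays 74.9% of spots in SiO2 and 75.5% in PBS were well above background.

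By the brightest probe of each, all 6 genes were at least 2-fold lower in the SiO2 pool, and all 6 at least 4-fold lower. The other probe of Anxa8 was 1.98-fold lower. Over all 16774 genes, 3.69% were at least 2-fold lower and 0.483% at least 4-fold lower. The median log2 difference of the 6 was -3.14, against 0.03 over all genes. Among all genes ranked from the lowest difference, Nkain4 was at place 9, Anxa8 at 10, Gpm6a at 13, Chst4 at 17, Lrp2 at 25 and Aldh1a2 at 63. Since the genes were chosen on this contrast, these shares and places say how they were selected and nothing more. In tissue RNA, fewer cells of a type and less RNA per cell cannot be told apart.

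**Figure D1:**
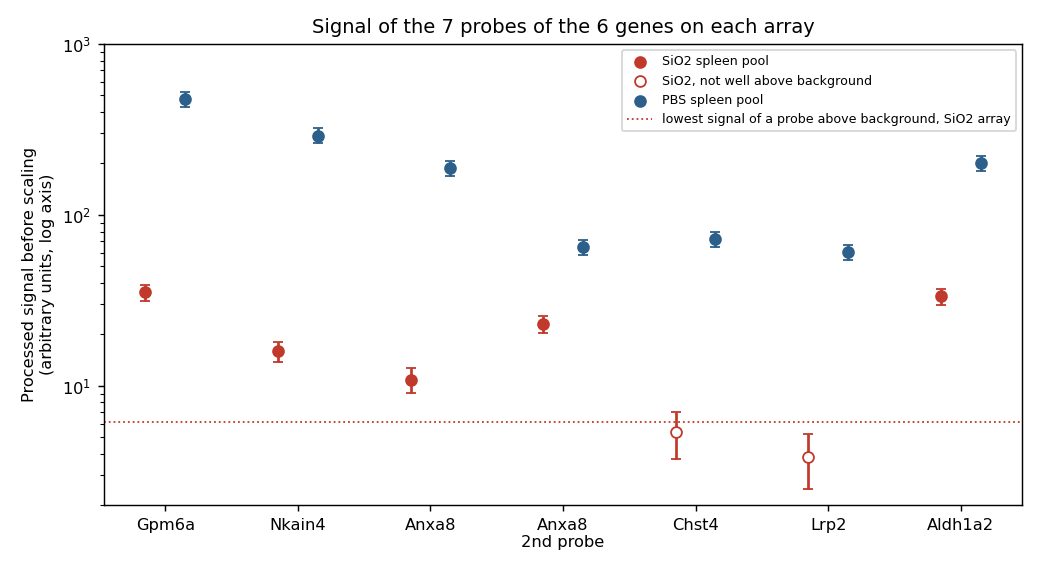
Processed signal before scaling (arbitrary units, log axis) of the 7 probes of the 6 genes, with the SiO2 pool left of the PBS pool. Bars are the scanner software's error of the spot (for the repeated Anxa8 probe, the mean over its 10 spots), open circles are spots not well above background, and the dotted line is the lowest signal of any probe above background on the SiO2 array (6.14 units). Every probe was brighter in the PBS pool, from 2.82-fold for the other probe of Anxa8 to 18.3-fold for Nkain4 before scaling.

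**Figure D2:**
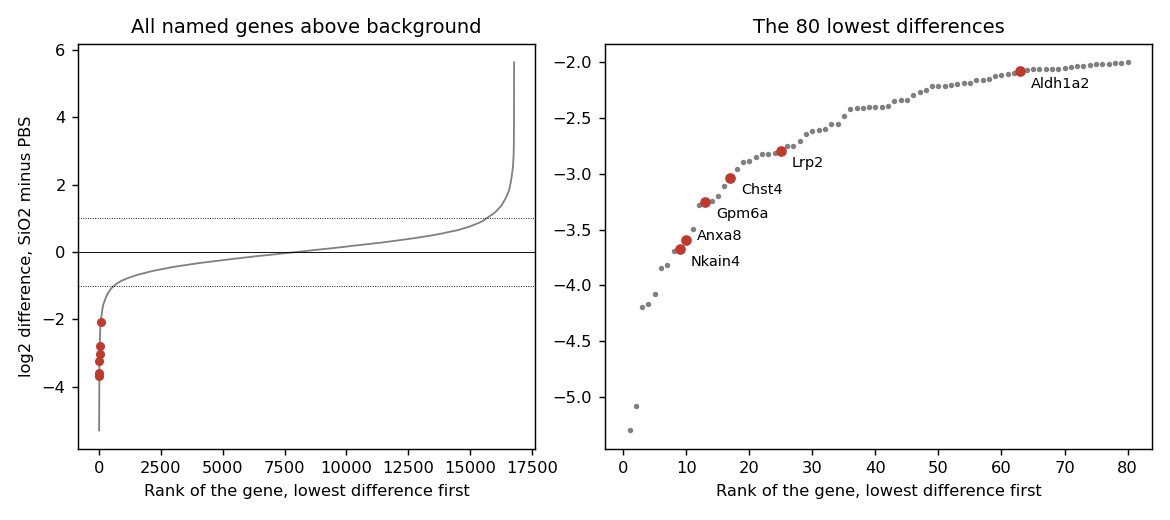
log2 difference (SiO2 minus PBS) of all 16774 named genes by rank (left) and of the 80 lowest (right), with the 6 genes in red and dotted lines at 2-fold. The 6 genes lie between places 9 and 63.

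Aldh1a2, which makes retinoic acid, had the smallest difference of the 6. Its signal was 33.4 ± 3.60 units in the SiO2 pool, against 202 ± 20.3 units in the PBS pool. It was above background in both and 4.24-fold lower in SiO2 (log2 difference -2.08, software error 0.21). The nearest other named genes in log2 difference were the interferon-induced genes Irgm2 (-2.10) and Ifit3 (-2.07), over these 2 arrays.

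The rest of the retinoid pathway differed in both directions. Of 29 listed genes of retinoic acid synthesis, transport and turnover other than Aldh1a2, 24 were above background, 2 were at least 2-fold higher and 2 at least 2-fold lower. The corresponding shares over all genes were 6.62% higher and 3.69% lower. Aldh1a1, the sister enzyme that also makes retinoic acid, went the other way from Aldh1a2: its signal was 5189 units in the SiO2 pool and 1997 units in the PBS pool, 3.71-fold higher, and it was at least 2-fold higher under all 12 alternatives. Aldh1a3, the remaining enzyme of the group and outside the naming rule, was at -0.88. Fabp5, a fatty-acid carrier that can deliver retinoic acid, was 2.16-fold higher, and less than 2-fold without scaling (0.60).

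Rbp4, the retinol-binding protein of plasma, had 8.25 units in the SiO2 pool and 27.9 units in the PBS pool, 2.37-fold lower. That direction was lost with normexp background correction, which gave 0.07, and it was at -0.85 when the B and T cell genes were set to a median difference of 0. The retinoic acid receptor Rara was 2.04-fold lower, with 665 units in SiO2 and 1931 in PBS. It was at -0.63 with that B and T cell setting. The median of the 24 genes was -0.19, and changed sign with processing, from -0.70 without scaling to 0.20 with that B and T cell setting. Cyp26a1, an enzyme that degrades retinoic acid and a well-known target of it, was below background on both arrays, as was Cyp26c1 of the same family. Cyp26b1, the other listed member of that family and outside the naming rule, was above background on both. It was at -0.28, with 105 units in SiO2 and 181 in PBS.

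Lrp2, or megalin, was detected in the control pool only. Its signal was 3.84 ± 1.36 units in the SiO2 pool, not well above background, against 60.8 ± 6.27 units in the PBS pool. Taking the lowest signal of a probe above background on the SiO2 array in place of its own, it was at least 6.94-fold lower in SiO2 (log2 difference -2.80). Before any processing, the Lrp2 spot was 12 units brighter than its local background on the SiO2 array and 73 units brighter on the PBS array. The 153 negative control spots reached at most 9 units above theirs on the SiO2 array and at most 10 on the PBS array. The unprocessed SiO2 spot was thus above all of them, although the software did not call it well above background. On the processed signal, which the differences use, it was not: 3.84 units lay below the brightest negative control of the SiO2 array, 4.05 units.

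None of the other receptors of the LDL receptor family came near that difference. Of 20 listed family members and endocytic partners of megalin, 19 were above background, none was at least 2-fold higher and 2 were at least 2-fold lower, among them Lrp11 (2.01-fold). Lrp11 was under 2-fold with normexp (-0.38) and with the B and T cell genes set to a median difference of 0 (-0.62). The median was -0.37, from -0.88 without scaling to 0.02 with the B and T cell genes set to 0. Cubn, which encodes cubilin, the partner receptor of megalin in the kidney, had 98.9 units in SiO2 and 253 in PBS (-0.84), and Dab2, an adaptor for megalin endocytosis, was at -0.51. Both lie outside the naming rule and were picked after their values were seen. Lrp1b was below background on both arrays.

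Gpm6a was well above background on both arrays. Its signal was 35.2 ± 3.80 units in the SiO2 pool, against 478 ± 47.8 units in the PBS pool, so it was 9.51-fold lower in SiO2 (log2 difference -3.25, software error 0.21). The gene nearest to it in log2 difference was Efemp1, which encodes a secreted matrix protein of the fibulin family (-3.25). Gpm6b, its closest relative, was at -0.85, with 436 units in SiO2 and 1123 in PBS. It reached 2-fold only without scaling (-1.37).

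Nkain4 had the largest difference of the 6. Its signal was 15.9 ± 2.06 units in the SiO2 pool, against 291 ± 29.2 units in the PBS pool, 12.8-fold lower in SiO2 (log2 difference -3.68, software error 0.24). Both spots were well above background. The nearest genes in log2 difference were the interferon-induced GTPase Gbp2b (-3.69) and Anxa8.

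The sodium pump to which Nkain4 binds did not show a like difference. Of 17 genes of the NKAIN family and of sodium pump subunits, 14 were above background and 0 differed 2-fold in either direction. The largest difference was that of Fxyd6, a small regulator of the pump, at -0.99 (460 units in SiO2 and 1305 in PBS), just under 2-fold. It passed 2-fold under 6 of 12 alternatives. Nkain3 was below background on both arrays. The median was -0.19, from -0.70 without scaling to 0.20 with the B and T cell genes set to 0.

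Anxa8 is the one gene of the 6 with repeated measurements. One of its probes was spotted 10 times on each array. The 10 spots ranged from 8.84 to 12.3 units in the SiO2 pool (median 11.4) and from 154 to 202 units in the PBS pool (median 192), with no overlap. All 10 were well above background on the SiO2 array. The log2 difference of this probe was -3.59 ± 0.12 (SD over 10 spots), 12.1-fold lower in SiO2, with single spots from -3.77 to -3.38. These spots share 1 pool per group, so their SD is technical.

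The other Anxa8 probe gave a much smaller difference. It had 23.0 ± 2.67 units in the SiO2 pool and 64.9 ± 6.69 units in the PBS pool, 1.98-fold lower (log2 difference -0.98, software error 0.22). Both probes are assigned to the same accession, and their sequences were not used here, so the reason for the disagreement was not tested. With the mean of both probes, Anxa8 was at -2.29.

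**Figure D3:**
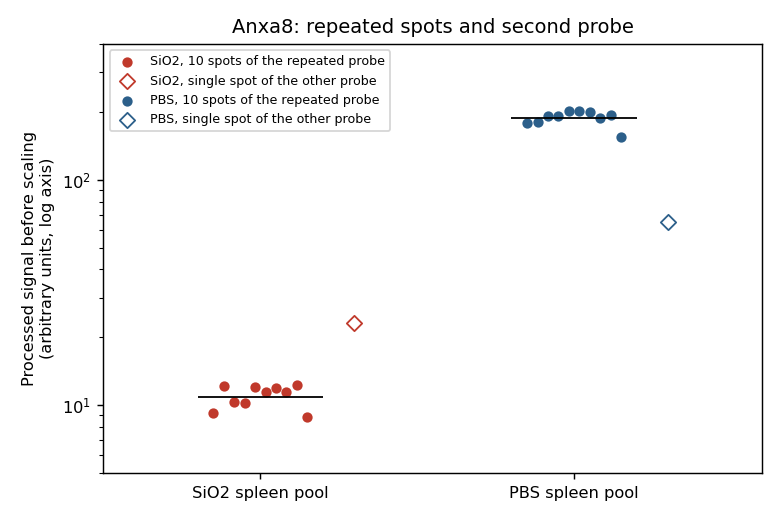
Processed signal before scaling (arbitrary units, log axis) of Anxa8 in the SiO2 pool (left) and the PBS pool (right). Filled points are the 10 spots of the repeated probe with their geometric mean as a line, and diamonds are the single spot of the other probe. The repeated spots lie between 8.84 and 12.3 units in SiO2 and between 154 and 202 units in PBS, while the other probe reads 23.0 units in SiO2 and 64.9 units in PBS.

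Among the other annexins and their S100 partners, 12 of 13 were above background and 0 differed 2-fold. The largest difference was that of Anxa1, a glucocorticoid-induced annexin of phagocytes, which was at 0.74, with 7620 units in SiO2 and 6521 in PBS. It passed 2-fold only with the B and T cell genes set to 0 (1.13). The median was -0.15, from -0.66 without scaling to 0.24 with that setting.

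Chst4 was detected in the control pool only. Its signal was 5.40 ± 1.65 units in the SiO2 pool, not well above background, against 72.0 ± 7.44 units in the PBS pool. By the same bound it was at least 8.22-fold lower in SiO2 (log2 difference -3.04). Its unprocessed spot was 12 units above local background on the SiO2 array and 70.5 units above it on the PBS array.

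Of 17 other carbohydrate sulfotransferases, 13 were above background, 1 was at least 2-fold higher and none lower. Chst13 just reached 2-fold (24 units in SiO2 and 17.1 in PBS), and was at 2-fold in 4 of the 12 alternatives. Its log2 difference lay between 0.49 and 1.39 over all of them. Its other probe was at 2.65 on the log2 scale by its own signals, without the bound used for dim spots. With the mean over probes, where that bound is used, 0 of the 13 sulfotransferases were at least 2-fold higher. The median of the family was -0.04, from -0.55 without scaling to 0.35 with the B and T cell genes set to 0. Of 12 further genes of L-selectin ligands and high endothelial venules, 11 were above background, with 1 at least 2-fold higher and none lower. Ackr1, a chemokine receptor of venules that red cells also carry, had 368 units in the SiO2 pool and 94.2 units in the PBS pool, 5.58-fold higher, and was at least 2-fold higher under all 12 alternatives. Glycam1, a carrier of L-selectin ligands in lymph node venules, was below background on both arrays. The median of this list was 0.39, from -0.12 without scaling to 0.78 with the B and T cell genes set to 0.

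The 6 genes were set beside markers of the cell types that express them elsewhere. Of 15 mesothelial surface, keratin and identity genes, 13 were above background on at least 1 array, 9 were lower by 2-fold or more, none was higher by as much, and their median was -2.05 (from -2.93 to -0.89 over the 12 alternatives). Msln, which encodes mesothelin, was 39.4-fold lower, the membrane protein genes Upk3b and Lrrn4 were 33.9-fold and 16.9-fold lower, and Upk1b was at least 14.4-fold lower. The summed signal of the 13 was 1.65 in the SiO2 pool and 6.79 in the PBS pool, in multiples of the 75th percentile of the array. Such a sum follows the brightest probes most, so it does not describe each gene of the list. In the SiO2 pool 5 of the 13 were not well above background, and Calb2 was below background on both arrays. Muc16 was not analysed here. The difference was not even over the list: Wt1, the mesothelial transcription factor, was at -0.94, with 330 units in SiO2 and 905 in PBS. Wt1 was picked after its values were seen. The part of mesothelial RNA in the differences of the 6 genes was not tested.

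Smooth muscle genes of the splenic capsule and trabeculae were at a median of -0.77, from -1.28 without scaling to -0.38 with the B and T cell genes set to 0. All 10 were above background on at least 1 array, and 1 was at least 2-fold lower, Cnn1, which encodes the contractile protein calponin (2.65-fold). Lmod1 was not well above background in SiO2, so its -0.66 is a bound. Without the floor Lmod1 was at -2.89, and 2 of the 10 were at least 2-fold lower. Of 11 fibroblast markers, 4 were higher by 2-fold or more and none was lower by as much. These were the proteoglycan gene Lum (6.96-fold) and the collagen genes Col3a1 (3.82-fold), Col1a1 (3.00-fold) and Col1a2 (2.07-fold), of which Col1a2 was at 2-fold in 7 of the 12 alternatives, with a log2 difference from 0.54 to 1.44 over all of them. Over all genes 6.62% were higher by 2-fold or more. The median of the 11 was 0.27, and -0.25 without scaling. Of the 11, 9 were above 0 and 2 below, the lowest being Dcn at -0.86. Dcn lies outside the naming rule and was picked after its values were seen.

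Markers of neurons and glia, which also express Gpm6a, included 2 of 11 measured genes that were higher by 2-fold or more and 1 that was lower. Their median of -0.16 lay between -0.68 and 0.28 over the alternatives. The glial filament gene Gfap was 6.52-fold higher and Snap25, of synaptic vesicle release, 2.55-fold higher (log2 0.84 without scaling). The tubulin gene Tubb3 was 2.65-fold lower, or -0.91 with normexp. For Gfap the array held 3 probes that differed in size, with log2 differences from 0.63 to 2.70. The 6.52-fold value lies at the top of that range. Over the 12 alternatives the log2 difference of Gfap lay between 1.73 and 3.10. Markers of the kidney proximal tubule, where megalin is abundant, included 1 of 6 higher by 2-fold or more, the glucose transporter gene Slc5a2 (2.83-fold, or 0.99 on the log2 scale with no scaling), and none lower. Their median was 0.39, and -0.12 without scaling. Markers of stratified epithelium, in which Anxa8 is found, had 0 of 6 differing 2-fold, with the keratin gene Krt14 at -0.70, or 0.04 with normexp, and a median of 0.24, or -0.27 without scaling and -0.32 over the 4 genes in the authors' deposited table.

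**Figure D4:**
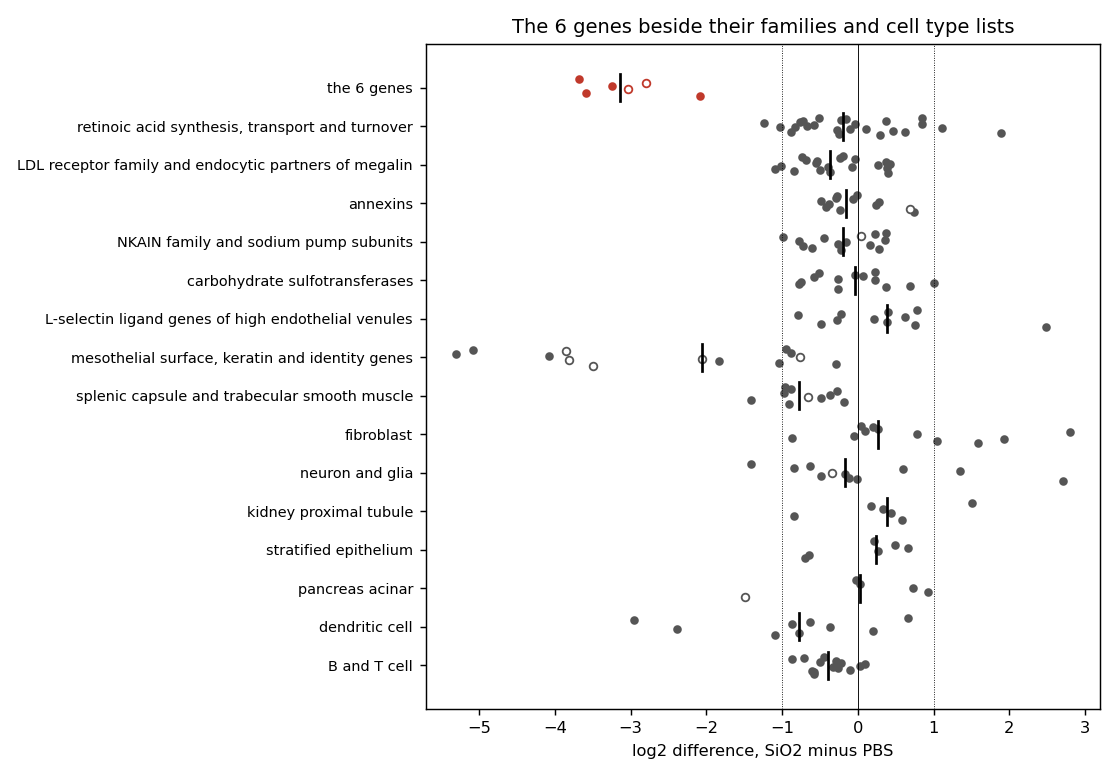
log2 difference (SiO2 minus PBS) of each measured gene, by list, with the 6 genes in red on top. Black bars are medians, open circles are bounds, and dotted lines mark 2-fold. The 6 genes lie between -3.68 and -2.08, most mesothelial genes are also below -1, and the medians of the 6 pathway and family lists drawn here lie between -0.37 and 0.39. Over the alternatives each of these 6 medians crosses 0.

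**Figure D5:**
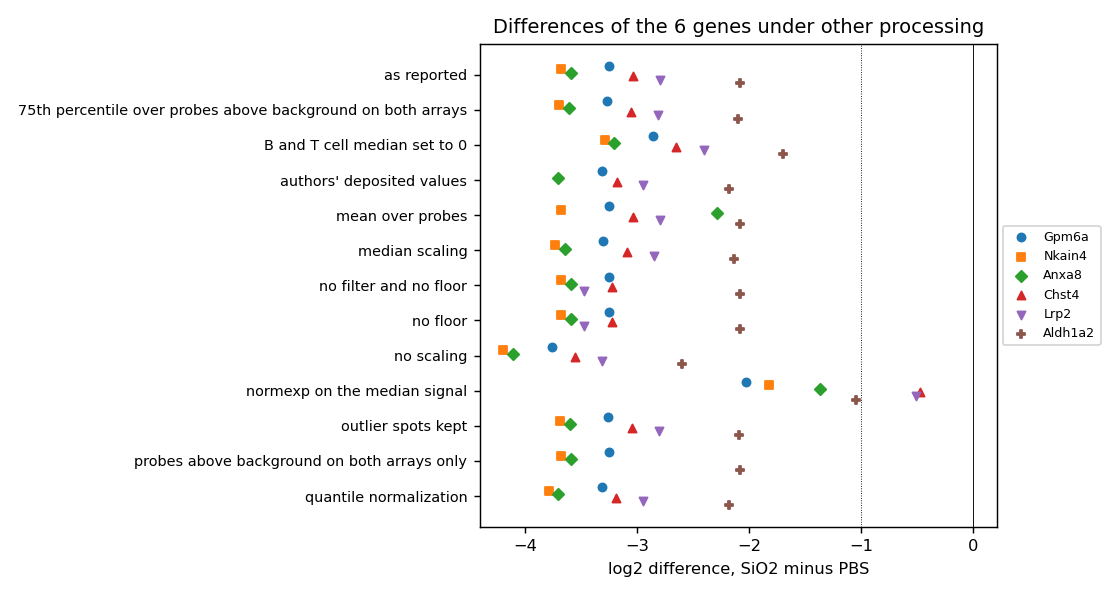
log2 difference (SiO2 minus PBS) of the 6 genes as reported and under each of the 12 alternatives, with a dotted line at 2-fold lower. All stay below 0. Only with normexp do Chst4 (-0.48) and Lrp2 (-0.51) lie above the dotted line.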

How the data were processed

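RNA of 2 spleen pools was hybridised to 1-colour arrays (Cy3). Per the labels' protocols it was extracted with a kit made for blood, and globin message was reduced. The deposited scanner files hold linear spot intensity, with background subtracted by Agilent Feature Extraction 11.0.1.1 per the file headers. Version 9.1 is named in the submitters' processing notes. The authors' deposited value table covers 26049 probes on a log2 scale. Its column medians are both 5.68, and it has slopes of 1.01 (SiO2) and 0.994 (PBS) against log2 scanner intensity. Its scale is thus log2 and its direction that of the signal, while the sources used here do not say how the medians were brought together.

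Outlier flags removed 148 spots in SiO2 and 145 in PBS out of 43020 without controls, and 0 were saturated. Each array's log2 intensity was set relative to its 75th percentile, and repeated spots were averaged on the log2 scale. Names came from unversioned accessions looked up in a RefSeq table (GRCm38.p6), used for names and for the order of genes on the chromosomes: 27217 of 39398 probes (69.1%) matched 1 symbol. A gene was given by its brightest probe (mean of both arrays) among those above background in 1 or both pools. If dim in 1 pool, that probe took there the higher of its own value and that of the dimmest probe above background, 6.14 units in SiO2 and 7.37 in PBS, and the difference is a bound. This floor lies above the brightest of 153 negative controls, 4.05 units in SiO2 and 3.38 in PBS. Among 383 probes with at least 8 spots, the SD of the log2 difference had a median of 0.47 below 8 units, 0.25 from 8 to 20, 0.11 from 20 to 50 and 0.05 above 50, by signal in SiO2.

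The 6 genes, the lists and the names were chosen with earlier results of these data known. Besides the 6, each list gave its genes at least 2-fold different, up to 4 per direction, or else the gene with the largest difference, and each of the 6 that was above background on both arrays gave the nearest gene in log2 difference on either side. The steps were tested on simulated data. Normexp used limma 3.58.1 on the median spot and local background intensity with an offset of 50. Figures were drawn with matplotlib 3.10.9. No test was made, as each group has 1 array. Some genes of the lists are not reported here.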

Additional observations from a re-analysis of the deposited data

How the results depend on the processing

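All 6 genes were below 0 under every one of the 12 alternatives that gave a value. They were at least 2-fold lower in all but normexp, which left 4 of 6. For Anxa8 this rests on its repeated probe or on the mean of both probes. No alternative used its other probe alone, which was at -0.98 with the main processing. With normexp, which adds 50 units to every signal by construction, the log2 differences were -2.03 for Gpm6a, -1.82 for Nkain4, -1.37 for Anxa8, -1.05 for Aldh1a2, -0.51 for Lrp2 and -0.48 for Chst4, with a median of -1.21. Without scaling they were -3.76 for Gpm6a, -4.19 for Nkain4, -4.10 for Anxa8, -3.55 for Chst4 and -2.60 for Aldh1a2, with a median of -3.66. With the B and T cell genes set to a median difference of 0, they were -2.86 for Gpm6a, -3.29 for Nkain4, -3.20 for Anxa8 and -1.69 for Aldh1a2, with a median of -2.75. That setting and normexp on the median signal were chosen after seeing the data. With the mean over probes Anxa8 was at -2.29. Without a floor, with or without the filter on dim probes, Lrp2 was at -3.47. Over probes above background on both arrays the median of the 4 genes left was -3.42, and Chst4 and Lrp2 had no value. The authors' deposited table has no value used here for Nkain4.

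Over all genes, 619 were at least 2-fold lower and 1110 higher. These numbers were 259 and 655 with normexp, 2692 and 407 without scaling, and 255 and 2523 with the B and T cell setting. In the authors' deposited values they were 530 and 666, but over 12132 genes in place of 16774. Of all genes at least 2-fold different, 35.8% were lower, against 86.9% without scaling and 9.18% with the B and T cell setting. The median of all genes was 0.03, and 0.18, -0.48 and 0.42 under normexp, no scaling and the B and T cell setting. Normexp on the mean signal was not run, since the files used here hold only median signals. No paired analysis was possible because each group has 1 array. Signal over background limits the values of some genes: in the SiO2 pool the main probes of Anxa8, Chst4 and Lrp2 were at 10.9, 5.40 and 3.84 units.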

Other observations

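The nearest measured genes on the chromosomes of the 6 had differences between -0.72 and 1.38. For each of the 6, the nearest protein-coding gene on either side in the RefSeq gene order that was above background here was taken, 12 genes in all. For 5 of the 6 these were the adjacent coding genes, while for Gpm6a they were Asb5, 3 coding genes away, and Hpgd, 15 away. None was at least 2-fold lower, 1 was at least 2-fold higher, and their median log2 difference was -0.11. The one that was higher was Aqp9, a water and glycerol channel gene beside Aldh1a2, with 23.3 units in the SiO2 pool and 12.7 units in the PBS pool. Beside Lrp2 lies Dhrs9, an enzyme of retinol oxidation, at -0.10 with 8.29 units in SiO2 and 12.7 in PBS. Beside Chst4 lies Tat, the liver enzyme tyrosine aminotransferase, at 0.39 with 80.6 units in SiO2 and 87.8 in PBS. Chosen after the data were seen, these are values with no test.

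Dendritic cells of the gut can also make retinoic acid with Aldh1a2. Of 9 dendritic cell markers, 3 were at least 2-fold lower in the SiO2 pool and none higher, with a median of -0.78 (from -1.29 to -0.39 over the 12 alternatives). These were Xcr1 (7.75-fold) and Clec9a (5.25-fold), receptors of cross-presenting dendritic cells, and their transcription factor Batf3 (2.14-fold, or -0.70 with the B and T cell setting). Of 14 B and T cell markers, 0 differed 2-fold, the largest difference being that of the T cell co-receptor gene Cd8a at -0.87, with a median of -0.39. Pancreatic acinar genes, from an organ that lies against the spleen, had 1 of 5 at least 2-fold lower, Amy2a5 (at least 2.80-fold, not well above background in SiO2, with its other probe at -0.11, and 0.02 with normexp), none higher, and a median of 0.03 (from -0.48 to 0.42). The part of these cell types in the difference of Aldh1a2 was not tested.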
